A study of Mus musculus with 18 samples.

Results

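The lysosome genes described here were 46 mouse genes for hydrolases, membrane proteins and proton pump subunits of the lysosome, picked by symbol out of the 23329 genes counted in each library. All 46 symbols were found, and they comprised 16 genes of the V-ATPase, 6 of lysosomal membrane proteins, 11 of glycosidases, 4 of sulfatases, 7 of lipid hydrolases and their helper proteins, and the pair Tpp1 and Grn. Cathepsin proteases were not among them. The gene that held too few reads to be tested was Atp6v0c, so 45 members were tested.

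Lysosomes are acidic compartments in which proteins, sugars, sulfated polymers and lipids taken up or made by the cell are broken down. The V-ATPase pumps protons into them, with a V1 sector that splits ATP on the cytosolic side and a V0 sector in the membrane that passes the protons. Phagocytes such as macrophages are known for large numbers of lysosomes, and transcription factors of the MiT/TFE family (TFEB, TFE3, MITF and TFEC) bind a short palindrome, the E-box, in front of many lysosomal genes.

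The RNA came from FDH cells, an immortalised fetal liver culture started from E14.5 BALB/c embryos, at passages 10 to 12. All groups came from mice that lack both signalling chains of the IL-3 receptor (βc and βIL-3), and all had been given βc back by transduction. One line also received IL3Rα, the IL-3-binding chain, with the amino acid change P248L, and the other received wild-type IL3Rα. Untreated cells of each line were grown with doxycycline and 100 ng/ml mouse SCF (stem cell factor), and treated cells were washed and kept for 2 or 5 days in 100 ng/ml IL-3. Doxycycline and SCF are not listed in that medium, so a day 2 or day 5 response holds the loss of both as well as the gain of IL-3. The groups were P248L untreated, day 2 and day 5 and wild-type untreated, day 2 and day 5, with 3 libraries in each of the 6 groups, 18 in all, from 1000000 cells per condition. Each receptor was carried by 1 line, so a receptor difference and a line difference cannot be told apart. The labels do not say whether the libraries of a group were separate cultures, and the p-values measure the spread between libraries, which may be technical.

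Libraries held 13844612 to 27181962 reads in genes. P248L untreated library 1 and P248L day 2 library 3 stood apart from their groups in the TMM scaling factor, at 0.995 against 1.12 and 1.13 and at 0.913 against 1.05 and 1.05, and the members' counts that use P248L libraries are also given without them. Levels are given in CPM, the read count of a gene per 1000000 gene reads with TMM scaling applied, with the mean ± SD of n = 3 libraries where a mean is given. Changes are log2 fold changes ± SE from edgeR's quasi-likelihood test, and a gene is said to rise or fall at a Benjamini-Hochberg adjusted p under 0.05 over all 11942 genes tested.

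By day 5 of IL-3, lysosome genes had risen together in both lines. In P248L cells 41 of 45 members rose and 1 fell against untreated cells, where 34.8% of all tested genes rose and 36.2% fell. In wild-type cells 45 of 45 rose, against 35.7% of all tested genes that rose and 37.3% that fell. The median log2 fold change of the members was 1.08 in P248L cells (−0.41 to 9.85) and 1.98 in wild-type cells (0.58 to 12.72), beside medians of −0.02 and −0.05 over all tested genes. Without P248L untreated library 1 and day 2 library 3 the P248L counts were 41 rises and 2 falls. Leaving out 1 library at a time, 37 to 41 members were called in P248L cells and 45 in wild-type cells.

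Most of the rise came after day 2. Against day 2, 40 members rose and 1 fell at day 5 in P248L cells (37.1% and 33.0% of all tested genes), and 44 rose and 0 fell in wild-type cells (36.0% and 34.6%). The P248L counts were again 40 and 1 without the libraries that stood apart. Together the members took 0.601% of gene reads in P248L untreated cells, 0.489% at day 2 and 2.48 ± 0.245% at day 5. In wild-type cells their share was 0.649% untreated, 0.613% at day 2 and 4.16 ± 0.213% at day 5 (SD, n = 3). Psap alone made up 1.27% of gene reads in P248L and 2.00% in wild-type cells at day 5, and without it the members' share was still 1.21 ± 0.0564% and 2.16 ± 0.0746% against 0.57% and 0.6% untreated.

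**Figure D1:**
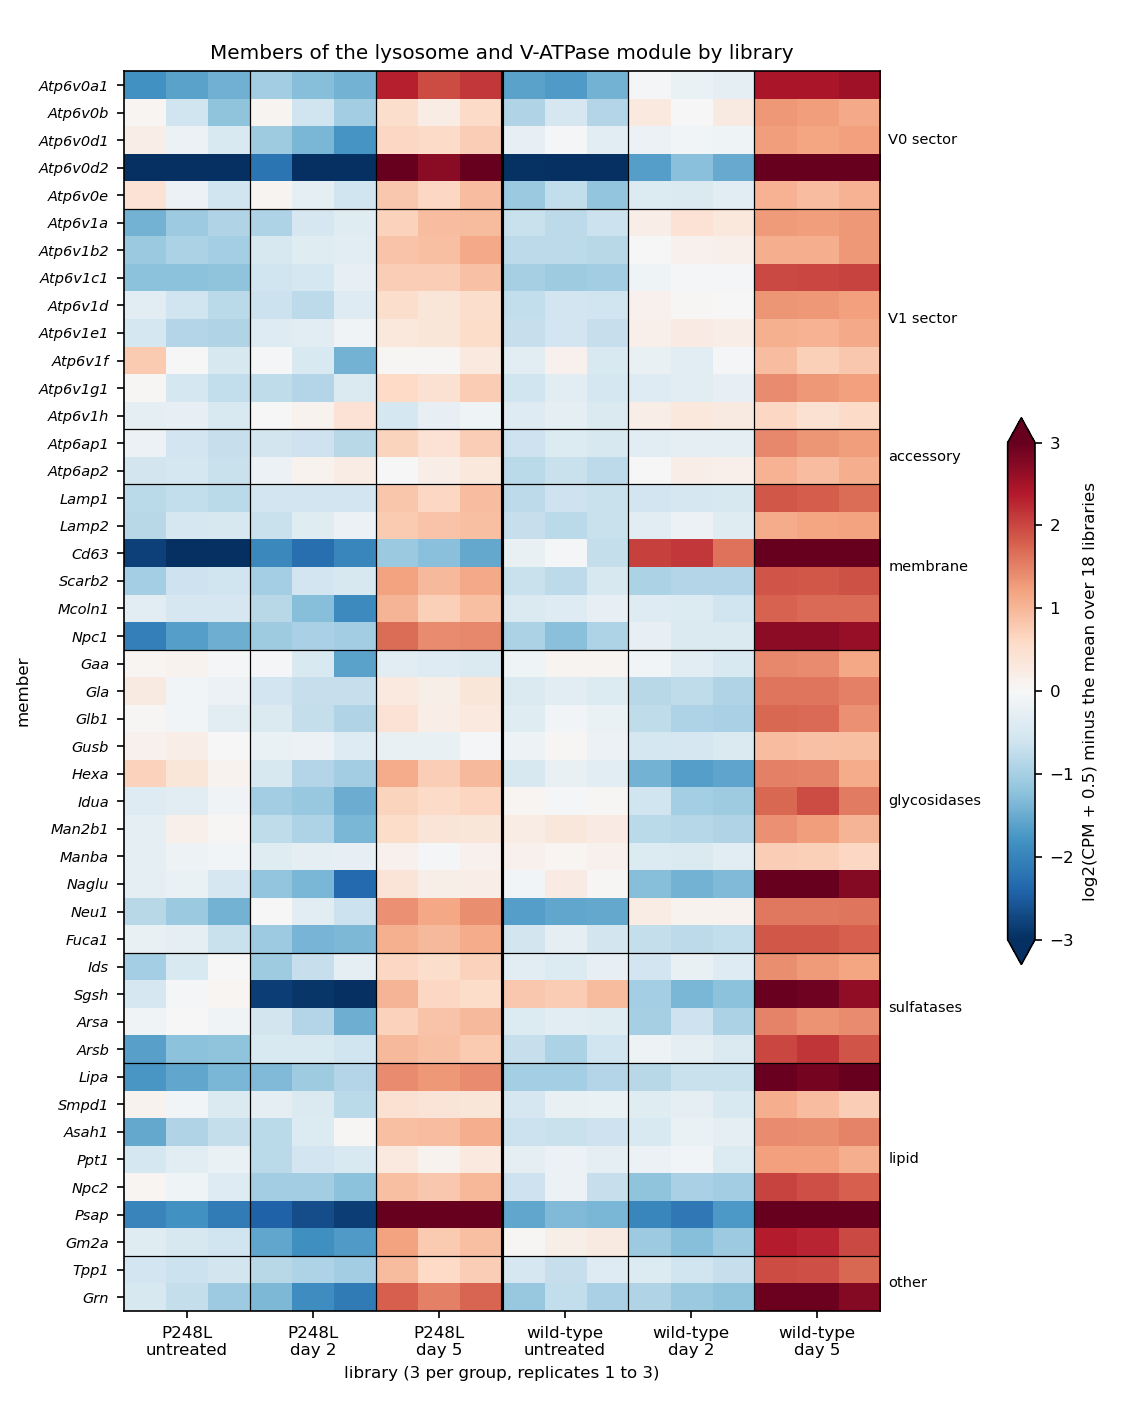
Level of each of the 45 tested members (rows, grouped by role) in each of the 18 libraries (columns, 3 per group), as log2(CPM + 0.5) minus the member's mean over all libraries, with colours capped at 3 in both directions. The day 5 columns are red for nearly all members in both lines and darker in wild-type cells, while at day 2 the V-ATPase rows above and the glycosidase rows below differ in colour.

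At day 2 the members were split in direction. In P248L cells 14 members rose and 17 fell at day 2 (18.5% and 21.4% of all tested genes), and in wild-type cells 16 rose and 13 fell (22.0% and 21.7%), with medians of −0.22 and 0.02. V-ATPase genes lay mostly on one side and glycosidase genes on the other. Of 15 tested V-ATPase genes, 8 rose and 1 fell in P248L cells and 11 rose and 0 fell in wild-type cells, whereas of 11 glycosidase genes 1 rose and 8 fell in each line. Of the members, 12 rose and 12 fell in both lines, and 0 were called in opposite directions. Of the members that fell at day 2, 16 in P248L and 13 in wild-type cells rose above their untreated level by day 5. Without the libraries that stood apart, 12 members rose and 18 fell at day 2 in P248L cells.

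Same-numbered P248L untreated and day 2 libraries deviated together (r = 0.52, 0.28 and 0.4), though the labels give no pairing. With the number as a block in a fit of those libraries alone, 26 members passed the test (10 higher and 16 lower). That fit no longer called Atp6v0a1 (adjusted p 0.16), Atp6v1e1 (0.063), Atp6v1h (0.06), Gusb (0.084) and Tpp1 (0.09), and it called Atp6v1f lower (−0.74, adjusted p 0.019). Atp6v0d2, which the fit of all libraries called higher, was not tested in it. With the same libraries alone and no block, 16 members were called by edgeR (5 higher and 11 lower).

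**Figure D2:**
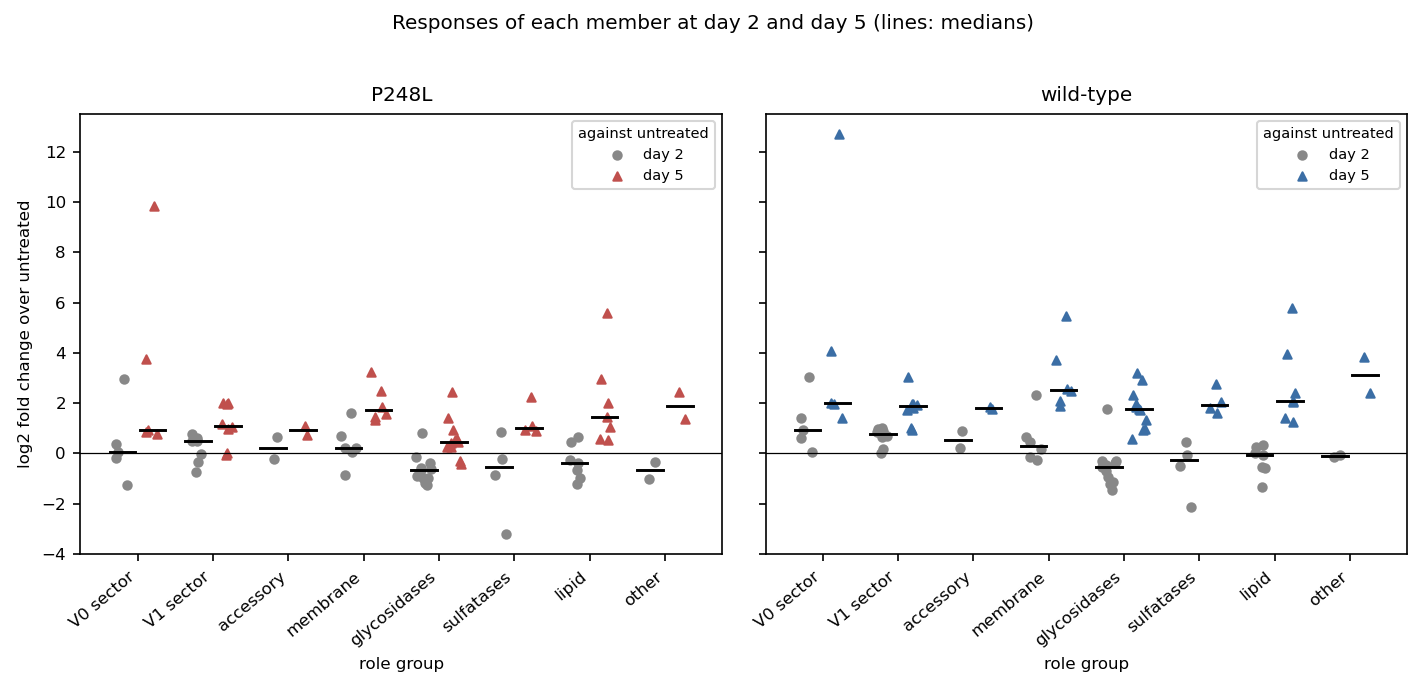
Log2 fold change over untreated cells (vertical axis) of each tested member by role group, in P248L cells (left) and wild-type cells (right); circles are day 2, triangles day 5 and bars the medians. At day 2 V-ATPase genes lie mostly above 0 and glycosidases mostly below it, and at day 5 only 3 members, all in P248L cells, lie below 0.

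Markers of blood cell types moved over the same days. Of 6 progenitor markers, 6 fell by day 5 in each line. Their summed level was 2237 to 2621 CPM untreated, 1068 to 1283 at day 2 and 212 to 264 at day 5 in P248L cells. It was 2080 to 2225, 649 to 699.9 and 121 to 155 CPM at the same times in wild-type cells. Of 8 macrophage markers, 7 were tested and 6 rose in P248L and 7 in wild-type cells by day 5. Their sum was 245 to 276 CPM untreated, 335 to 355 at day 2 and 1728 to 2024 at day 5 in P248L cells, and 218 to 241, 425 to 476 and 2607 to 2769 CPM in wild-type cells. C1qa had 0 reads in all libraries but 1, and Mertk and Siglec1 were at 0 in P248L untreated cells. Emr1 was most of the untreated sum, with 149, 195 and 199.8 CPM in P248L and 129.6, 137 and 131 CPM in wild-type libraries. At day 5 Cd14 was higher in P248L libraries (564, 573 and 745 CPM) than in wild-type ones (157, 153 and 302 CPM). Mrc1 was lower in them (46.8, 31.1 and 37.7 against 544, 496 and 414 CPM). All 7 neutrophil markers rose by day 5 in both lines, and at day 2 their sum was 38.9 to 71.5 CPM in P248L and 7023 to 8707 CPM in wild-type cells. It was 1.73 to 3.47 CPM untreated and 14172 to 19675 CPM at day 5 in P248L cells, and 37.2 to 56.7 and 5646 to 8809 CPM in wild-type cells. Most of the day 5 sum was S100a8, with 10210.5, 16337 and 15580.4 CPM in P248L and 3334, 3844 and 5944 CPM in wild-type libraries. Cd177 overlapped between the lines at day 5 (93.2, 67.4 and 54 CPM in P248L and 74.5, 116 and 114 CPM in wild-type libraries).

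Basophil and mast cell markers, of which 3 of 5 were tested, summed to 29.1 to 51.5 CPM at day 5 in P248L cells against 2027 to 2998 CPM in wild-type cells. At day 2 that sum was 262 to 264 CPM in P248L and 794 to 1109 CPM in wild-type cells, and untreated it was 522 to 590.4 and 514 to 681 CPM. Nearly all of it was Cpa3, with 38.3, 47.9 and 27.1 CPM at day 5 in P248L and 2996, 2634 and 2026 CPM in wild-type libraries. Mcpt8 fell by day 5 in both lines (−4.12 ± 0.34 in P248L and −3.81 ± 0.35 in wild-type cells), and neither Mcpt8 nor Ms4a2 was called between the lines at day 5 (adjusted p 0.21 and 0.71). The osteoclast genes Ocstamp and Calcr had 0 reads throughout, Ctsk was the 1 osteoclast marker of 5 that was tested, and the sum of the list did not exceed 59.5 CPM. Erythroid, hepatocyte, stromal and endothelial, and B and T cell lists stayed at or under 27.5 CPM in sum, with Alb and Ttr at 0 in every library. In bulk RNA, fewer cells of a type and less RNA per cell cannot be told apart, and the part that cell types have in the members' changes was not tested.

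The V0 sector held the largest change of the module. Atp6v0d2 encodes an alternative form of subunit d, which couples the membrane sector to the rotor, and is known from osteoclasts, macrophages and kidney. It lies on chromosome 4 (19876841 to 19922605, minus strand, GRCm38). P248L libraries held 0, 0.0983 and 0.064 CPM before IL-3, 0.868, 0.123 and 0.221 on day 2 and 64.8, 40.2 and 63.8 on day 5. Wild-type libraries read 0.298, 0.193 and 0.133 CPM before IL-3, 1.48, 2.12 and 1.67 on day 2 and 1447, 1326 and 1493 on day 5. The groups at day 5 lay far above all others, and the P248L libraries stayed well under the wild-type ones. Its log2 fold change at day 5 was 9.85 ± 0.46 in P248L cells and 12.72 ± 0.42 in wild-type cells (adjusted p 3.6e-12 and 3.5e-14), from 4 reads over the P248L and 14 over the wild-type untreated libraries. At day 5 the P248L level was lower by edgeR's test, with a log2 fold change of −4.66 ± 0.27 (adjusted p 3e-10), while the difference of the day 5 responses (−2.87) did not pass (adjusted p 0.12). The rise already seen at day 2 in P248L cells (2.95 ± 0.79) was not called without library 1 of that group, which held 21 of the 26 reads (adjusted p 0.2).

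Atp6v0d1, the common form of subunit d, behaved otherwise. It read 191, 149 and 121 CPM before IL-3 and 80.1, 64.2 and 48.7 CPM on day 2 in P248L libraries, and 262 ± 16.2 CPM (SD, n = 3) on day 5, from 5591, 3235 and 4463 reads. Wild-type libraries read 141, 164 and 135 CPM before IL-3, 147, 157 and 152 on day 2 and 401, 383 and 391 on day 5. In P248L cells it fell at day 2 (−1.25 ± 0.17, adjusted p 1.8e-05) and in wild-type cells the day 2 and untreated libraries overlapped (0.05 ± 0.17, adjusted p 0.83). This gave the largest difference of day 2 responses by size, −1.31 ± 0.23 (adjusted p 0.0013). Per kilobase of transcript, Atp6v0d2 stood at 22.2 ± 5.48 CPM in P248L and 560.1 ± 33.9 CPM in wild-type cells at day 5, and Atp6v0d1 at 161 ± 9.97 and 240.5 ± 5.41 CPM. So Atp6v0d2 was the lesser form of subunit d in P248L cells and the greater one in wild-type cells, and before day 5 it was under 1 CPM per kilobase in either line.

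Among the other V0 genes, Atp6v0a1, which encodes a proton-path subunit, rose most. Its libraries read 51.5, 59.3 and 66.5 CPM before IL-3, 88.1, 74.2 and 67.2 on day 2 and 921, 707 and 786 on day 5 in P248L cells. Wild-type libraries read 59.5, 55 and 67 CPM before IL-3, 178, 158 and 147 on day 2 and 990.5, 988 and 1058 on day 5. The day 5 responses were 3.77 ± 0.15 in P248L and 4.06 ± 0.16 in wild-type cells, and their difference was not called, at −0.30 ± 0.19 (adjusted p 0.28). At day 2 they parted, with 0.37 ± 0.14 in P248L cells, a rise that was lost without any of 4 libraries (P248L day 2 library 1 or 2, untreated library 1 or 2, adjusted p 0.059 to 0.13), and 1.41 ± 0.14 in wild-type cells. The difference of day 2 responses was −1.04 ± 0.20 (adjusted p 0.0019). Atp6v0e, a small membrane subunit, read 247, 162 and 120.1 CPM before IL-3, 195, 152 and 121 on day 2 and 320.1, 284 and 348 on day 5 in P248L libraries. Wild-type libraries read 84, 109 and 81 CPM before IL-3, 138, 135 and 148 on day 2 and 378, 347 and 377 on day 5. It was higher in P248L untreated cells (0.95 ± 0.21, adjusted p 0.0037), with no overlap between the lines, and rose less by day 5 in them (0.85 ± 0.21 against 2.01 ± 0.22, adjusted p of the difference 0.0076). The highest untreated P248L value of Atp6v0e was that of library 1, which stood apart in its scaling factor. Atp6v0b, a proteolipid of the ring, rose at day 5 by 0.94 ± 0.27 in P248L and 1.98 ± 0.28 in wild-type cells.

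Atp6v0c encodes the main proteolipid of the same ring, and it had 1 read in P248L day 5 library 1, 1 read in wild-type day 5 library 1 and 0 in the other 16 libraries. Of the 50-base words of its transcripts, 10.8% also occur in its pseudogenes Atp6v0c-ps1 and Atp6v0c-ps2. Other members with over 10% of such words in other genes were counted at 10385 reads or more in all, namely Arsb (38.5%), Atp6v1g1 (19.2%), Sgsh (18.5%), Arsa (15.8%), Atp6v1f (11.2%), Cd63 (11.1%) and Hexa (10.6%). Their counts, and the values given for them, are uncertain as far as reads of these words were split or dropped, and the part of shared words in any of these counts was not tested. Both strands of the genes outside the module were searched, so a match may lie on a gene's other strand. The count of Atp6v0c is not read as absence.

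In the V1 sector, 6 of 8 genes rose in P248L cells and 8 of 8 in wild-type cells at day 5, with medians of 1.11 and 1.87. Atp6v1a and Atp6v1b2 encode the subunits A and B of the ring that splits ATP. For Atp6v1a the libraries read 148, 186 and 213 CPM before IL-3, 207, 279 and 306 on day 2 and 638, 757 and 762 on day 5 in P248L cells. Wild-type libraries read 247, 228 and 251 CPM before IL-3, 455, 532 and 492 on day 2 and 953, 939 and 977 on day 5. Its day 5 responses were 1.98 ± 0.15 in P248L and 1.98 ± 0.15 in wild-type cells, and those of Atp6v1b2 1.99 ± 0.11 and 1.97 ± 0.11. The differences of 0.00 ± 0.21 and 0.02 ± 0.15 were the smallest of the module in size (adjusted p 1 and 0.95).

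For 5 of the other V1 genes the day 5 response was lower in P248L cells by the test of the difference. Atp6v1c1, which encodes a regulatory subunit that holds the sectors together, read 69.2, 69.1 and 70.3 CPM before IL-3, 106, 112 and 137 on day 2 and 271, 269 and 297 on day 5 in P248L libraries. Wild-type libraries read 81.2, 76.5 and 78.4 CPM before IL-3, 147, 158 and 155 on day 2 and 637, 649 and 666 on day 5. It rose by 2.01 ± 0.11 in P248L and 3.05 ± 0.11 in wild-type cells, with a difference of −1.04 ± 0.15 (adjusted p 4.9e-05). Atp6v1h, another regulatory subunit, stood at 85.8, 87.2 and 76 CPM before IL-3, 103, 112 and 140.4 on day 2 and 72.1, 88.1 and 95 on day 5 in P248L libraries. Wild-type libraries read 78.9, 85.6 and 76.3 CPM before IL-3, 119, 130.2 and 126 on day 2 and 161, 143 and 155 on day 5. The P248L libraries were highest at day 2 and back among the untreated ones at day 5 (0.03 ± 0.13, adjusted p 0.83; −0.48 ± 0.13 against day 2, adjusted p 0.0031). In wild-type cells the gene rose by 0.93 ± 0.13 by day 5, and the lines' responses differed by −0.90 ± 0.18 (adjusted p 0.0014). Atp6v1f, of the rotor, gave −0.07 ± 0.30 at day 5 in P248L cells (adjusted p 0.84) and rose by 1.02 ± 0.30 in wild-type cells, but its P248L untreated libraries spread over 137, 78.3 and 56.9 CPM and the difference did not pass (adjusted p 0.064). Atp6v1d, Atp6v1e1 and Atp6v1g1 rose in both lines, by 1.04 ± 0.13, 1.17 ± 0.12 and 0.99 ± 0.17 in P248L cells and by 1.93 ± 0.13, 1.73 ± 0.12 and 1.82 ± 0.17 in wild-type cells.

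Both accessory genes rose by day 5 in each line. Atp6ap1, whose product assists assembly of the pump, read 218, 167 and 153 CPM before IL-3, 170, 161 and 139 on day 2 and 395, 333 and 416 on day 5 in P248L libraries. Wild-type libraries read 160.2, 185 and 177 CPM before IL-3, 196, 204 and 202 on day 2 and 676, 625 and 587 on day 5. It rose by 1.09 ± 0.14 in P248L and 1.85 ± 0.14 in wild-type cells (difference −0.77 ± 0.19, adjusted p 0.0062). Atp6ap2, the prorenin receptor, rose by 0.75 ± 0.12 in P248L and 1.78 ± 0.12 in wild-type cells. Between day 2 and day 5 it changed by 0.10 ± 0.12 in P248L cells, which did not pass (adjusted p 0.45), and rose by 0.90 ± 0.12 in wild-type cells (adjusted p 3.2e-06).

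**Figure D3:**
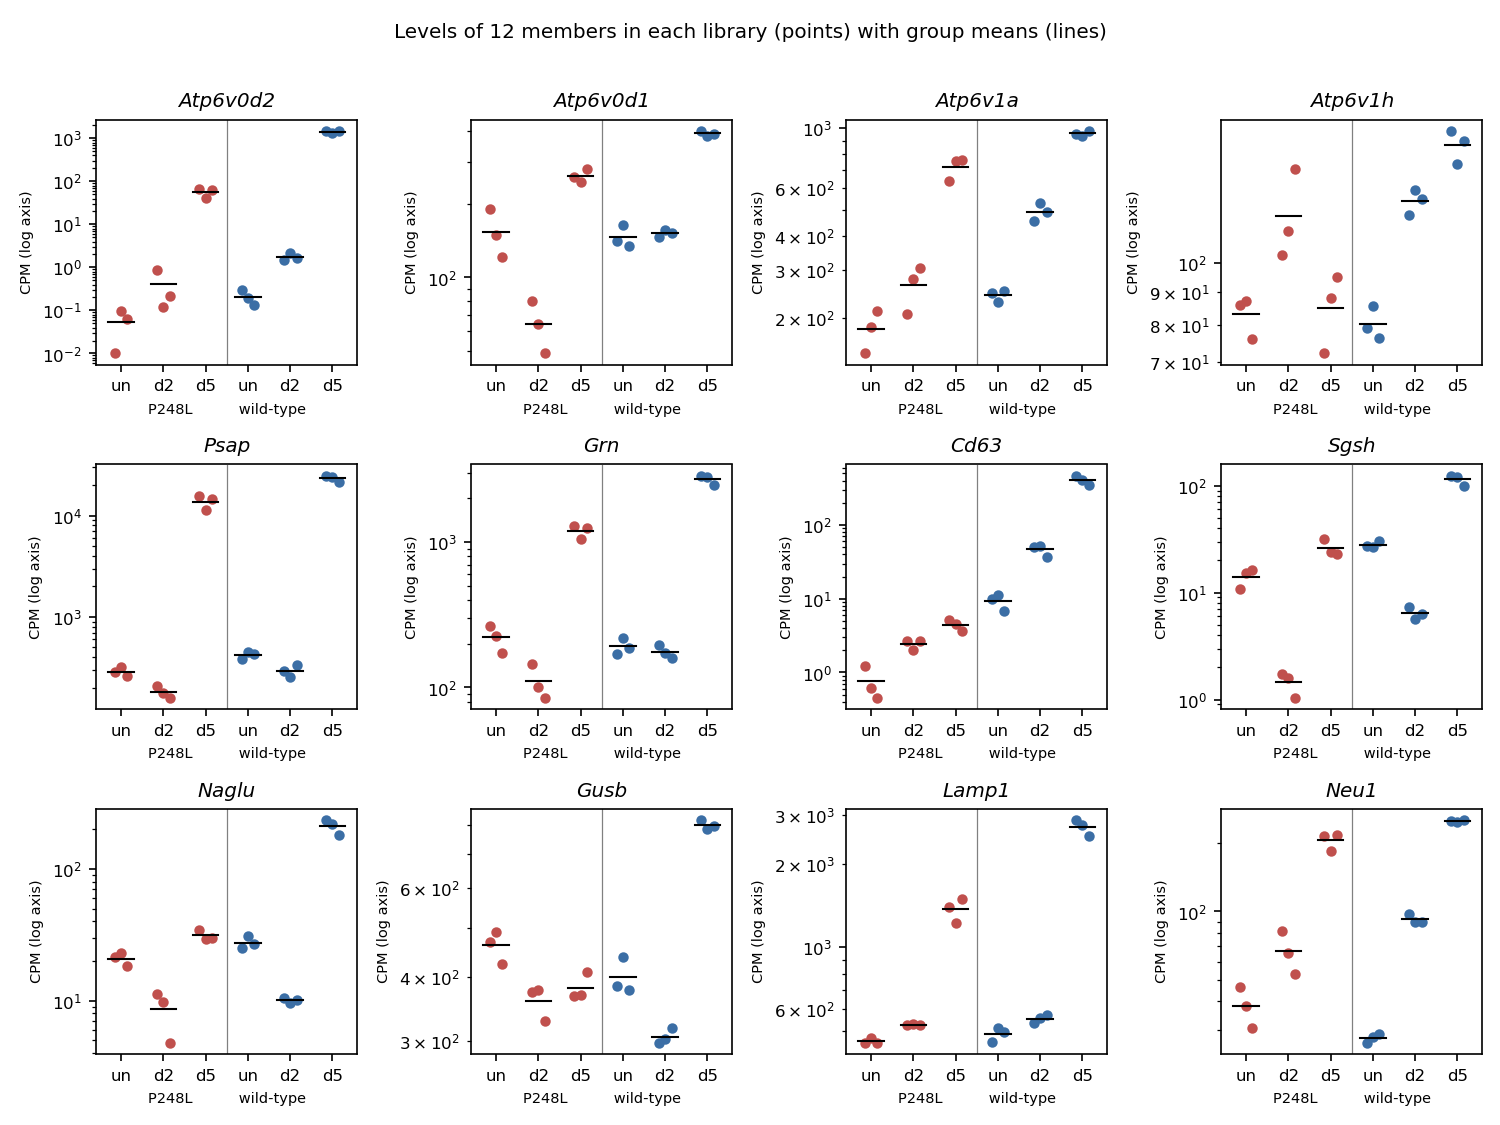
CPM on a log axis of 12 members in each library (points) with group means (black lines), for P248L cells (red) left of wild-type cells (blue) at untreated (un), day 2 (d2) and day 5 (d5); a level of 0 is drawn at 0.01. Psap, Lamp1 and Neu1 are highest at day 5 in both lines, Gusb lies lower and Atp6v1h overlaps at day 5 with untreated P248L cells, Cd63 is lower in every P248L group, and Sgsh and Naglu dip at day 2.

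All 6 membrane protein genes rose by day 5 in both lines, with a median of 1.71 in P248L and 2.51 in wild-type cells. Lamp1, which with Lamp2 makes up much of the protein of the lysosomal membrane, had the highest mean level of the group. It read 452, 471 and 453 CPM before IL-3, 526, 528 and 526 on day 2 and 1396, 1221 and 1491 on day 5 in P248L libraries. Wild-type libraries read 454, 513 and 495 CPM before IL-3, 532, 555 and 568 on day 2 and 2868, 2771 and 2523 on day 5. The day 5 libraries of each line stood above all earlier ones, and the responses of 1.58 ± 0.11 in P248L and 2.48 ± 0.11 in wild-type cells differed by −0.90 ± 0.15 (adjusted p 0.00028). Lamp2 rose by 1.44 ± 0.13 and 1.90 ± 0.13 in the same order, and there the difference did not pass (adjusted p 0.074). Npc1, which moves cholesterol out of the lysosome, rose by 3.24 ± 0.15 in P248L and 3.71 ± 0.15 in wild-type cells. Scarb2, which carries glucocerebrosidase to lysosomes, rose by 1.85 ± 0.15 and 2.55 ± 0.15, and Mcoln1, a calcium channel, by 1.35 ± 0.19 and 2.10 ± 0.19.

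Cd63, a tetraspanin of late endosomes and lysosomes, parted the lines at every time (chromosome 10, 128900989 to 128912822, plus strand). P248L libraries read 1.24, 0.623 and 0.448 CPM before IL-3, 2.69, 2.03 and 2.65 on day 2 and 5.09, 4.6 and 3.7 on day 5. Wild-type libraries read 9.9, 11.3 and 6.88 CPM before IL-3, 50.3, 52.6 and 37.2 on day 2 and 467, 409 and 353 on day 5. Even the P248L day 5 libraries lay below every wild-type untreated library. The log2 fold change of P248L over wild-type cells was −3.53 ± 0.28 untreated, −4.24 ± 0.26 at day 2 and −6.51 ± 0.27 at day 5 (adjusted p 4.6e-08, 5.4e-10 and 4.2e-12). Cd63 nevertheless rose by day 5 within each line, by 2.47 ± 0.30 in P248L and 5.45 ± 0.25 in wild-type cells, and the responses differed by −2.98 ± 0.39 (adjusted p 2.3e-05).

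Of the 11 glycosidase genes, 9 rose and 1 fell in P248L cells at day 5, with a median of 0.47, and 11 rose in wild-type cells, with a median of 1.75. Neu1, a sialidase, differed from the other 10 by rising at day 2 in both lines (0.80 ± 0.15 in P248L and 1.75 ± 0.16 in wild-type cells). It read 46.2, 38.3 and 30.6 CPM before IL-3, 81.9, 65.8 and 52.8 on day 2 and 215, 186 and 219 on day 5 in P248L libraries. Wild-type libraries read 26.2, 27.8 and 28.6 CPM before IL-3, 97.9, 90 and 89.8 on day 2 and 250.4, 249 and 253 on day 5. Neu1 rose by 2.43 ± 0.16 and 3.19 ± 0.16 by day 5. Man2b1, an α-mannosidase and the gene of highest mean level in the group, read 340, 459 and 424 CPM before IL-3, 243, 217 and 159 on day 2 and 611, 539 and 537 on day 5 in P248L libraries. Wild-type libraries read 481, 524 and 494 CPM before IL-3, 235, 229 and 222 on day 2 and 1075, 983 and 835 on day 5. Its day 2 libraries lay below the untreated ones in each line (−0.98 ± 0.15 in P248L and −1.13 ± 0.15 in wild-type cells). Hexa, the α subunit of β-hexosaminidase A, fell likewise at day 2 (−1.18 ± 0.17 and −1.21 ± 0.17). It was the member highest above wild-type in P248L cells at day 2 (0.77 ± 0.17, adjusted p 0.0017) and was also higher untreated (0.75 ± 0.17, adjusted p 0.0042), with 314, 252 and 211 CPM before IL-3, 139.7, 107 and 94.5 on day 2 and 423, 328 and 383 on day 5 in P248L libraries. Wild-type libraries read 141, 167 and 155 CPM before IL-3, 73.4, 61.7 and 64.6 on day 2 and 557, 551 and 427 on day 5. The highest untreated P248L value of Hexa was that of library 1, which stood apart in its scaling factor.

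The largest line differences of the glycosidases came at day 5. Naglu, which acts on heparan sulfate, read 21.3, 22.8 and 18.4 CPM before IL-3, 11.3, 9.85 and 4.78 on day 2 and 34.1, 29.6 and 30.1 on day 5 in P248L libraries. Wild-type libraries read 24.9, 31.2 and 26.7 CPM before IL-3, 10.5, 9.52 and 10.2 on day 2 and 233, 218 and 179.9 on day 5. The P248L day 5 libraries rose little above the untreated ones (0.58 ± 0.20, adjusted p 0.016, not called without P248L day 5 library 1 or untreated library 3, 0.062 and 0.079), and the wild-type ones lay far above (2.93 ± 0.21). The responses differed by −2.35 ± 0.29 (adjusted p 1.1e-05). Gla, α-galactosidase A, read 145, 113 and 107 CPM before IL-3, 80.9, 74.1 and 74.8 on day 2 and 149, 137 and 155 on day 5 in P248L libraries. Wild-type libraries read 89.6, 97.5 and 91 CPM before IL-3, 68, 71 and 64.7 on day 2 and 371, 366 and 344 on day 5. The P248L untreated and day 5 libraries overlapped (0.27 ± 0.11, a rise lost without any of 4 libraries, P248L day 5 library 1 or 3 and untreated library 2 or 3, adjusted p 0.093 to 0.31). In wild-type cells it rose by 1.96 ± 0.12, and the difference of −1.69 ± 0.16 had the smallest p of the members in this comparison (adjusted p 7e-07).

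Gusb, β-glucuronidase, was the member called in opposite directions in the lines at day 5. Its libraries read 470, 492 and 426 CPM before IL-3, 374, 377 and 328 on day 2 and 368, 369 and 409 on day 5 in P248L cells. Wild-type libraries read 385, 439 and 378 CPM before IL-3, 297, 302 and 318 on day 2 and 816, 783 and 796 on day 5. In P248L cells the day 5 libraries lay below the untreated ones (−0.28 ± 0.11, adjusted p 0.027), and in wild-type cells they lay above (0.99 ± 0.11, adjusted p 1.6e-07), with a difference of −1.27 ± 0.15 (adjusted p 7.5e-06). The P248L fall was not called without P248L day 5 library 1 or 2 (adjusted p 0.083 each) or untreated library 2 (0.058), nor with DESeq2 size factors (0.1), with no filter on low counts (0.054) or in a fit of those libraries alone (0.16). Gaa, which breaks down glycogen, read 50, 47.2 and 45.9 CPM at day 5 against 64.4, 66.6 and 59.7 CPM untreated in P248L libraries, which did not pass the test (−0.41 ± 0.24, adjusted p 0.14), and rose by 1.33 ± 0.24 in wild-type cells (difference −1.74 ± 0.34, adjusted p 0.001). Glb1, Idua, Fuca1 and Manba, which encode a β-galactosidase, an α-iduronidase, an α-fucosidase and a β-mannosidase, rose by day 5 in both lines, by 0.42 ± 0.14, 0.94 ± 0.16, 1.43 ± 0.13 and 0.26 ± 0.10 in P248L cells and by 1.83 ± 0.15, 1.75 ± 0.16, 2.31 ± 0.13 and 0.58 ± 0.10 in wild-type cells. The P248L rise of Manba was lost without P248L day 5 library 1 or 3 or untreated library 1 or 2 (adjusted p 0.078 to 0.097), and that of Glb1 without day 5 library 1 or untreated library 3 (0.056 to 0.1).

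All 4 sulfatase genes rose by day 5 in both lines. Sgsh, which removes sulfate from heparan sulfate, had the deepest day 2 dip of the module. Its P248L libraries read 10.7, 15.1 and 16.2 CPM before IL-3, 1.74, 1.6 and 1.03 on day 2 and 31.7, 24.2 and 22.8 on day 5. Wild-type libraries read 27.4, 26.4 and 30.5 CPM before IL-3, 7.32, 5.68 and 6.27 on day 2 and 124, 121 and 99.9 on day 5. The dip was −3.22 ± 0.22 in P248L and −2.12 ± 0.19 in wild-type cells, and at each time the P248L libraries were all below the wild-type ones. Arsb, which acts on dermatan sulfate, went the other way at day 2, with rises of 0.85 ± 0.13 and 0.46 ± 0.13, and read 30.7, 40.2 and 41.1 CPM before IL-3, 69.1, 69.9 and 63.4 on day 2 and 189.6, 177 and 166 on day 5 in P248L libraries. Wild-type libraries read 59.4, 49.1 and 63.1 CPM before IL-3, 86.2, 78.9 and 71.2 on day 2 and 388, 422 and 354 on day 5. By day 5 Arsb had risen by 2.25 ± 0.14 in P248L and 2.76 ± 0.14 in wild-type cells, Ids (iduronate sulfatase) by 1.08 ± 0.21 and 1.63 ± 0.21, and Arsa, which acts on sulfatide, by 0.93 ± 0.17 and 1.81 ± 0.18.

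Among the lipid genes Psap stood out by level. It encodes prosaposin, the precursor of the saposins that present sphingolipids to their hydrolases (chromosome 10, 60277627 to 60302597, plus strand). P248L libraries read 284, 318 and 262 CPM before IL-3, 210, 178 and 158 on day 2 and 15484, 11288 and 14455 on day 5. Wild-type libraries read 383, 449.8 and 433 CPM before IL-3, 292, 254 and 339 on day 2 and 24822, 24086 and 21564 on day 5. The level dipped at day 2 in both lines (−0.66 ± 0.16 and −0.52 ± 0.16, of which the wild-type dip was lost without any of 4 libraries, wild-type day 2 library 1 or 2 and untreated library 2 or 3, adjusted p 0.051 to 0.092) and rose after it. The day 5 responses were 5.58 ± 0.20 in P248L and 5.80 ± 0.20 in wild-type cells, and their difference of −0.22 ± 0.23 was not called (adjusted p 0.51). Per kilobase, Psap reached 5172 ± 823 CPM in P248L and 8841 ± 643 CPM in wild-type cells, beside 614 ± 61.4 and 1221 ± 79.9 CPM for Lamp1.

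The other 6 lipid genes also rose by day 5 in both lines. Lipa, the acid lipase that splits cholesteryl esters, rose by 2.95 ± 0.14 in P248L and 3.96 ± 0.14 in wild-type cells, with 405, 372 and 407 CPM against 1187, 1109.5 and 1269.7 CPM at day 5 and a difference of responses of −1.01 ± 0.18 (adjusted p 0.00049). Npc2, which hands cholesterol to Npc1, rose by 1.04 ± 0.15 and 2.40 ± 0.15 in the same order, a difference of −1.36 ± 0.21 (adjusted p 9.8e-05). Gm2a, the activator protein for ganglioside breakdown, fell at day 2 (−1.22 ± 0.14 and −1.32 ± 0.14) and rose by day 5 (1.45 ± 0.14 and 2.06 ± 0.14). Asah1, acid ceramidase, rose by 2.00 ± 0.20 and 2.08 ± 0.20 (difference −0.09 ± 0.27, adjusted p 0.85). Smpd1, acid sphingomyelinase, and Ppt1, a thioesterase, rose by 0.53 ± 0.16 and 0.58 ± 0.12 in P248L cells and by 1.24 ± 0.16 and 1.43 ± 0.12 in wild-type cells. The P248L rise of Smpd1 was lost without P248L untreated library 3 (adjusted p 0.076).

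Grn, which encodes the granulin precursor, read 266, 227 and 174 CPM before IL-3, 146, 101 and 84.4 on day 2 and 1282, 1058 and 1248 on day 5 in P248L libraries. Wild-type libraries read 169, 220.1 and 188 CPM before IL-3, 197, 172 and 159.5 on day 2 and 2868, 2827 and 2483 on day 5. At day 2 it fell in P248L cells (−1.01 ± 0.19, adjusted p 0.00049) while the wild-type day 2 and untreated libraries overlapped. By day 5 it rose by 2.43 ± 0.20 in P248L and 3.82 ± 0.21 in wild-type cells, a difference of −1.40 ± 0.27 (adjusted p 0.00081). Tpp1, a peptidase, rose by 1.37 ± 0.12 and 2.40 ± 0.13 (difference −1.03 ± 0.17, adjusted p 0.00026).

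The lines differed in the fewest members before IL-3 and in the most at day 5. Of 45 members, 4 were higher and 8 lower in P248L than in wild-type cells untreated (10.3% and 11.3% of all tested genes), 1 was higher and 21 lower at day 2 (15.3% and 20.3%), and 0 were higher and 39 lower at day 5 (22.7% and 22.7%). The medians were −0.08, −0.36 and −0.81, and those of all tested genes −0.01, 0.00 and 0.02. When the libraries that stood apart were dropped, 2 members were higher and 8 lower before IL-3, 2 higher and 23 lower on day 2, and 43 lower on day 5. Leaving out 1 library at a time, 8 to 15 members differed untreated, 17 to 23 at day 2 and 34 to 37 at day 5. In a fit of only the libraries compared, 6 members differed untreated (1 higher and 5 lower).

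The responses themselves were smaller in P248L cells at day 5. The difference of the day 5 responses was called for 31 of 45 members, all lower in P248L cells, against 12.1% of all tested genes that were lower and 14.6% that were higher. For the day 2 responses it was called for 7 members, again all lower, against 6.44% and 2.99% of all tested genes. The day 2 members were Atp6v0a1, Atp6v0d1, Atp6v1d, Neu1, Fuca1, Sgsh and Grn, and the count was 3 without wild-type untreated library 1, 4 without P248L day 2 library 2 or 3, P248L untreated library 2 or wild-type day 2 library 1, and 11 without P248L day 2 library 1. Without the libraries that stood apart, the difference was called for 38 members at day 5 and 7 at day 2, all lower in P248L cells. Leaving out 1 library at a time, it was called for 26 to 34 members at day 5. By role, the day 5 difference was called for 9 of 11 glycosidase genes, 9 of 15 V-ATPase genes, 5 of 7 lipid genes, 4 of 6 membrane protein genes, 2 of 4 sulfatase genes and both Tpp1 and Grn. The 14 members for which it was not called had differences of 0.02 to −2.87 with adjusted p-values of 0.053 to 1, and Psap, Asah1, Atp6v1a and Atp6v1b2 were the closest to 0 among them.

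**Figure D4:**
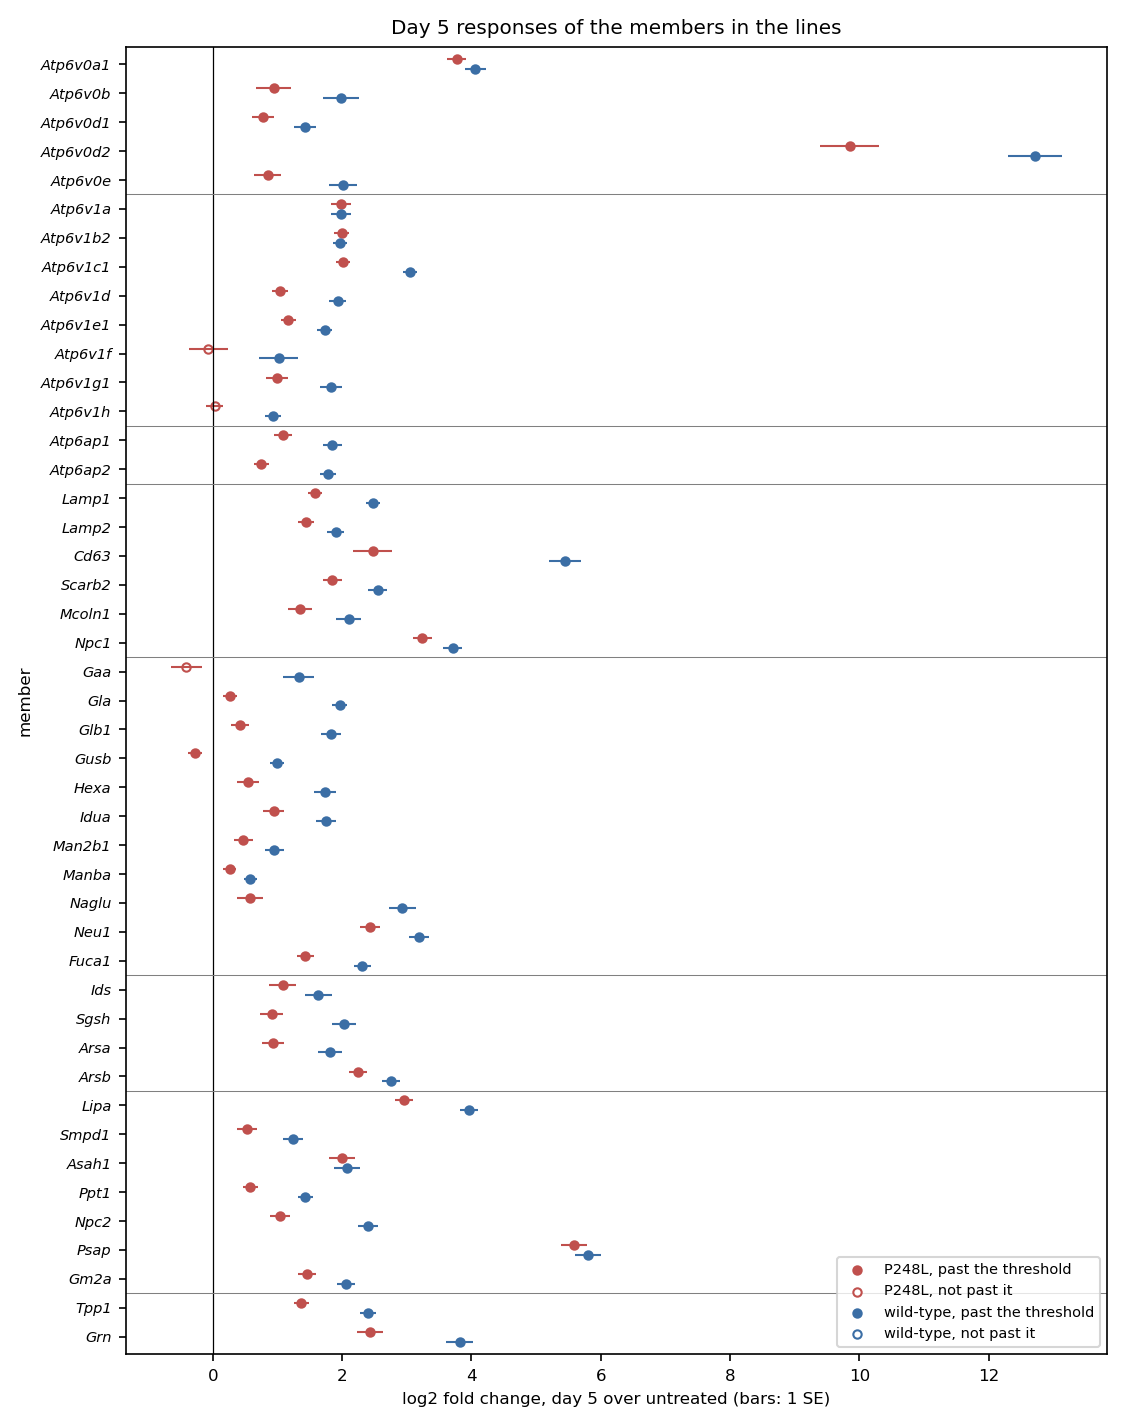
Log2 fold change of day 5 over untreated cells (horizontal axis, bars 1 SE) of each tested member in P248L cells (red, upper) and wild-type cells (blue, lower); filled points passed the adjusted p threshold. Wild-type points lie to the right of the P248L points for all members but Atp6v1b2, with Atp6v1a at the same place, and Gaa, Atp6v1f and Atp6v1h are open in P248L cells.

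Promoters of the members were searched for the E-box that MiT/TFE factors bind, CACGTG, which reads the same on both strands. RefSeq promoter windows of GRCm38.p6, from 250 bases before to 50 bases after each start, were matched for 39 of the 46 members (42 windows). The E-box was present in 12 of 39 (30.8%), in 18 copies, each with a T before it or an A after it. It was present in the windows of 8.09% of 27025 genes and of 12.1% of 8580 genes that were also tested here. The full form TCACGTGA was present in 5 of 39 members (12.8%), 1.12% of all genes and 2.35% of the tested ones. Windows of 50% GC or more gave shares of 29.0% (9 of 31 members) and 12.8% of tested genes for the E-box. For the full form they gave 9.68% (3 of 31 members) and 2.55% of tested genes. Among lysosomal genes outside the module other than cathepsins, the E-box was in 10 of 49 (20.4%) and the full form in 7 of 49 (14.3%). Among cathepsin genes they were in 4 of 9 (44.4%) and 2 of 9 (22.2%).

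Stretches of 100 bases upstream of every annotated start are shown 5′ to 3′ on the gene's strand, with each E-box inside them in capitals. They are from 6 members that carry it and from Psap and Lipa, which rose by day 5 and carry none in the window. They were chosen after values were seen. They lie on GRCm38.p6 at chr8:13159061-13159160 (plus strand) for Lamp1, chr8:3500357-3500456 (plus) for Mcoln1, chr4:117887334-117887433 (minus) for Atp6v0b, chr9:114400976-114401075 (plus) for Glb1, chr15:89477426-89477525 (minus) for Arsa, chr11:119267787-119267886 (plus) for Gaa, chr10:60277527-60277626 (plus) for Psap and chr19:34527475-34527574 (minus) for Lipa.
Lamp1: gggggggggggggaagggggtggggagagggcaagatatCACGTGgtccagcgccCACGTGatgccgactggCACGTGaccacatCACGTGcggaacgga
Mcoln1: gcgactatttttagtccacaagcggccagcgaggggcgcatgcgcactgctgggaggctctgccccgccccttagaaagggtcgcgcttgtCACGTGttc
Atp6v0b: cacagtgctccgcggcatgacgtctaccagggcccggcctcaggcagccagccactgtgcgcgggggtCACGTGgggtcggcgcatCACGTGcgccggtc
Glb1: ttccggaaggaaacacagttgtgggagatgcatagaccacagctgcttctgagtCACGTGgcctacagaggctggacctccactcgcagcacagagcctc
Arsa: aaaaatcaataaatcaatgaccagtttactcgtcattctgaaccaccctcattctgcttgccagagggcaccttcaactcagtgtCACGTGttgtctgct
Gaa: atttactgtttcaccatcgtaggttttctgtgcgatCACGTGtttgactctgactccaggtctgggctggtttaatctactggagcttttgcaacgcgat
Psap: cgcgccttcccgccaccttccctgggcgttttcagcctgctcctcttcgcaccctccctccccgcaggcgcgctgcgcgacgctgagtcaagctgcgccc
Lipa: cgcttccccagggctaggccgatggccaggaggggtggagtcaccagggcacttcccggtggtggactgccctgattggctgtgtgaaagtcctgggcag

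None of the copies shown is of the full form, and Mcoln1 has a full copy at −45 that lies beyond its stretch. Lamp1 carried 4 copies within 61 bases of its start, the most of any member. At day 5 the 12 members with an E-box had a median log2 fold change of 0.88 in P248L and 1.98 in wild-type cells. For the 26 tested members whose window lacked it, the medians were 1.13 and 1.92. Those without it spanned −0.28 to 5.58 in P248L and 0.58 to 5.80 in wild-type cells, and those with it −0.41 to 1.98 and 1.33 to 2.93. The 7 members with no window were not searched and are in neither set. Atp6v0d2, with 9.85 in P248L and 12.72 in wild-type cells, is among them. A match is a description of the letters, and binding was not measured.

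**Figure D5:**
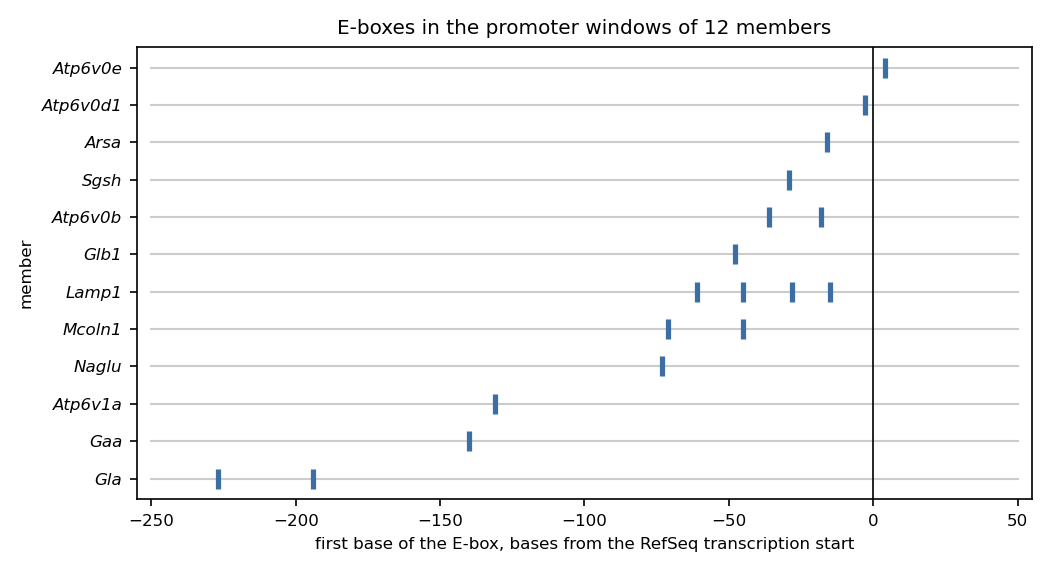
Position of each CACGTG E-box (blue ticks, first base) in the RefSeq promoter windows (grey lines, 250 bases before to 50 after the start) of the 12 members that carry it. Lamp1 has 4 of the 18 copies, and the copy of Atp6v0e is the one that begins after the start.

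Of the MiT/TFE factors, Tfeb, Tfe3 and Mitf rose by day 5 in both lines. Only their RNA was measured, and whether they had a part in the members' changes was not tested. Tfeb read 9.5, 7.74 and 6.21 CPM before IL-3, 13.7, 9.48 and 6.62 on day 2 and 42, 32.9 and 37 on day 5 in P248L libraries. Wild-type libraries read 6.02, 7.51 and 5.81 CPM before IL-3, 8.93, 8.95 and 12.7 on day 2 and 46.8, 42.5 and 45 on day 5. Its responses were 2.25 ± 0.23 in P248L and 2.79 ± 0.23 in wild-type cells. Mitf rose by 2.45 ± 0.19 in P248L and 2.76 ± 0.19 in wild-type cells, and Tfe3 by 0.86 ± 0.17 and 1.29 ± 0.18. Their differences of responses did not pass (adjusted p 0.22, 0.4 and 0.22). Tfec rose more in P248L cells (1.60 ± 0.13 against 0.39 ± 0.12, adjusted p of the difference 6.8e-05) and stood at 208, 217 and 250.2 CPM in P248L and 126, 119.5 and 129 CPM in wild-type libraries at day 5.

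Lysosomal genes outside the module were counted in the same fit. Of 62 other lysosomal genes 50 were tested, and by day 5 38 rose and 3 fell in P248L cells and 47 rose and 1 fell in wild-type cells. Of 13 cathepsin genes 12 were tested, of which 11 rose in P248L and 12 in wild-type cells. The difference of day 5 responses was lower for 25 and higher for 3 of the 50 other lysosomal genes and lower for 11 of the 12 cathepsin genes. Of all tested genes, 34.8% rose and 36.2% fell by day 5 in P248L cells, and 35.7% and 37.3% in wild-type cells. For the difference of day 5 responses, 12.1% of all tested genes were lower and 14.6% higher. Cathepsins took 0.936 ± 0.107% of gene reads in P248L and 4.23 ± 0.379% in wild-type cells at day 5, and 0.125% and 0.124% untreated. Ctsd held the largest part at day 5, with 5900.3, 4585 and 5793 CPM in P248L and 34585, 31013 and 27711 CPM in wild-type libraries. The Cd68 gene of the first list is also a macrophage marker, and Ctsk of the second an osteoclast marker.

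The largest rises of these lists by fitted fold in wild-type cells were those of Gpnmb, a lysosomal glycoprotein, and Mcoln2, a channel related to Mcoln1. Gpnmb read 978, 671 and 669.9 CPM at day 5 and 0.0751, 0.328 and 0 CPM untreated in P248L libraries. In wild-type libraries it read 4297, 4338 and 4064 CPM at day 5 and 1.54, 3.79 and 3.02 CPM untreated. Mcoln2 had no untreated read in either line, and stood at 0.602, 1.15 and 0.628 CPM in P248L and 26.6, 23.6 and 19 CPM in wild-type libraries at day 5. Ctsk, a collagen-degrading protease, reached 4.08, 4.07 and 3.95 CPM in P248L and 33.1, 44.1 and 58 CPM in wild-type libraries. Ctsh, an aminopeptidase, reached 0.0926, 0 and 0.0628 CPM in P248L and 3.59, 4.04 and 4.08 CPM in wild-type libraries. Gnptab was the gene that fell in wild-type cells (−1.12 ± 0.19) and fell in P248L cells as well (−1.19 ± 0.19, adjusted p 2.6e-05). It encodes a subunit of the enzyme that tags hydrolases with mannose phosphate for delivery to lysosomes.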

How the data were processed

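The authors aligned the reads with STAR to mm10, per the submitters' processing notes, and deposited raw read counts per gene for 18 libraries, in 3 columns by strand. The column of the strand that holds the reads was used, with no other normalization by the authors, and 0 columns of other samples were present. Genes were filtered with filterByExpr (minimum count 10, 11942 kept) and fitted with edgeR 4.0.16 in R 4.3.3, with TMM scaling, 1 mean per group over all 18 libraries and robust quasi-likelihood dispersions (common biological coefficient of variation 0.17). P-values were adjusted by Benjamini-Hochberg over all tested genes at a threshold of 0.05, and the SE is the log2 fold change divided by the root of F. DESeq2 1.42.0 and limma 3.58.1 were alternatives. The fit was also run on simulated counts with few changed genes and the same dispersion for every gene. That setting differs from these data, so it does not test the scaling or the dispersions used here. Promoters came from RefSeq and figures from matplotlib 3.10.9.

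The members and gene lists were chosen with earlier results of these data known. Values in every library are given for the largest rise and highest mean level in each role group, members called in opposite directions at day 5, the 3 smallest p-values of each difference of responses, the 2 largest line differences at each time, and Atp6v0d1 beside Atp6v0d2. Others were added for reading. Same-numbered libraries deviated together most clearly in P248L untreated and day 2 cells (r = 0.52, 0.28 and 0.4 for numbers 1, 2 and 3), a pairing that comes from the data and not from the labels. Between the lines r was 0.07, 0.09 and 0.2 at day 5 and −0.53, −0.32 and 0.5 untreated. Leaving out libraries, replicate blocks, other scalings, filters, thresholds and tests were tried, of which the block in those libraries alone and the fit without robust estimation were chosen after seeing the data.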

Additional observations from a re-analysis of the deposited data

Results flagged for a closer look

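For 38 values the lines' day 2 or day 5 responses differed, by a test of the difference itself (P248L minus wild-type, log2 scale, edgeR's quasi-likelihood test), and all were below 0. At day 2 the differences were −1.31 for Atp6v0d1, −1.10 for Sgsh, −1.04 for Atp6v0a1, −0.95 for Neu1, −0.88 for Grn, −0.74 for Atp6v1d and −0.60 for Fuca1. Of 12 fits that each left out 1 library, 9 lost the call for Grn (adjusted p 0.06 to 0.14) and 9 that for Fuca1 (0.075 to 0.14), and both calls held without P248L day 2 library 1, P248L untreated library 3 or wild-type untreated library 2. The call for Sgsh was lost without P248L day 2 library 3, P248L untreated library 2, wild-type day 2 library 1 or wild-type untreated library 1 (0.052 to 0.066), and that for Atp6v1d without P248L day 2 library 2 or wild-type untreated library 1 (0.05 to 0.052).

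At day 5 the pump genes differed by −1.16 (Atp6v0e), −1.04 (Atp6v1c1), −1.03 (Atp6ap2), −0.90 (Atp6v1h), −0.89 (Atp6v1d), −0.83 (Atp6v1g1), −0.77 (Atp6ap1), −0.64 (Atp6v0d1) and −0.56 (Atp6v1e1). The call for Atp6v0d1 was lost in 10 of 12 fits that left out 1 library (adjusted p 0.062 to 0.12) and held without P248L untreated library 3 or wild-type untreated library 2. That for Atp6v1e1 was lost without P248L day 5 library 1 or 2 (0.051 to 0.054). Membrane protein genes differed by −2.98 (Cd63), −0.90 (Lamp1), −0.76 (Mcoln1) and −0.70 (Scarb2). The call for Mcoln1 was lost in 9 of 12 such fits (0.053 to 0.1) and held without P248L day 5 library 1 or untreated library 3 of either line.

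Glycosidase genes differed at day 5 by −2.35 (Naglu), −1.74 (Gaa), −1.69 (Gla), −1.41 (Glb1), −1.27 (Gusb), −1.18 (Hexa), −0.88 (Fuca1), −0.82 (Idua) and −0.76 (Neu1). The sulfatase genes gave −1.12 (Sgsh) and −0.88 (Arsa), and the lipid genes −1.36 (Npc2), −1.01 (Lipa), −0.85 (Ppt1), −0.72 (Smpd1) and −0.61 (Gm2a). The call for Smpd1 was lost in 7 of 12 fits (0.052 to 0.081) and held without P248L day 5 library 1, wild-type day 5 library 3, P248L untreated library 3 or wild-type untreated library 2 or 3. That for Gm2a was lost without P248L day 5 library 2 or 3, wild-type day 5 library 1 or 2 or wild-type untreated library 1 (0.061 to 0.079). Grn gave −1.40 and Tpp1 −1.03.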

How the results depend on the processing

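No called member reversed direction under the alternatives run. The share of all tested genes past a fold threshold was not computed, so the counts at that threshold stand without it. An absolute log2 fold change of at least 1 left 25 members in P248L cells at day 5, 8 in P248L and 10 in wild-type cells at day 2, 17, 5 and 2 between the lines at day 5, day 2 and untreated, and 15 and 3 for the differences of day 5 and day 2 responses. The 7 members of the last were 3 at an adjusted p under 0.01, 4 scaled by library size only, 4 in a fit of only the libraries compared, and 3 to 11 leaving out 1 library. Fitting only the libraries compared gave 16 members for P248L day 2 and 6 between untreated lines. The replicate block in the whole fit gave 32 members for P248L day 2, and in P248L untreated and day 2 libraries alone 26. It moved no other count by over 1.5 times. Scaled by library size only, the median of all genes was −0.49 in wild-type day 5 and 0.25 in the difference of day 5 responses, and the members called were 43 in wild-type and 36 in P248L cells at day 5 and 22 for that difference. The share of all calls that were higher was then 34.4% against 48.9% with TMM in wild-type day 5, 36.0% against 50.4% in wild-type day 2, 40.5% against 51.0% in wild-type day 5 over day 2, 34.3% against 46.3% in P248L day 2 (36.2% with upper quartile scaling), 35.9% against 47.6% between untreated lines and 72.6% against 54.7% in the difference of day 5 responses. Over all fits that left out 1 library, 159 member calls were lost and 39 gained. Under the other settings, thresholds aside, 118 were lost and 107 gained. The causes were not tested. Untreated Atp6v0d2, with 4 reads in P248L and 14 in wild-type cells, limits the precision of its fold changes.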
